A study of Homo sapiens with 74 samples.

Results

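Coding exon peaks away from start sites are Cut&Run peaks whose highest point (the summit) lay on a protein-coding exon (CDS) of GENCODE 44, over 2 kb from every transcription start site (TSS) and over 1 kb from every gene 3′ end. They numbered 855 of the 92122 peaks (0.928%) in 72 lists, and they fell on 604 genes or gene pairs. The 36 genes whose open reading frames (ORFs) were transfected, and also USP39 and EEF1A1, were left out. In Cut&Run, DNA next to a protein is cut free by an enzyme tethered through an antibody, and the freed pieces are sequenced.

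The study asked where zinc-finger proteins (ZFPs) sit on DNA. HEK293T cells, an embryonic kidney line, were transfected with a plasmid for 1 of 36 ZFPs with a C-terminal V5 tag under an EF1-alpha promoter, grown for 48 h and profiled with a V5 antibody. Each ZFP had 2 replicates of 1 well each. In its summary of results, the paper lists no number of Cut&Run target genes for ZMAT5, SNRPC, TRIM55, ZC3H3, MBNL1 or CPSF4. Their lists were kept here. The 36 ZFPs used here should therefore not be taken as the 36 that passed the paper's quality control. Un-transfected HEK293T cells taken through the same V5 procedure (V5 mock IP) served as the control of the same batch. The groups were APEX2, BRCA1, CISD1, CNBP, CNOT4, CPSF4, CPSF4L, CTCF, G2E3, GIN1, GTF3C4, LIN28B, MAZ, MBNL1, NANOS2, PHF7, RBM5, RNF113A, RNF14, SALL4, SNRPC, TEX13A, TRIM55, the libraries labelled U2AF1, WBP4, ZC3H3, ZFP36L1, ZMAT3, ZMAT5, ZNF2, ZNF22, ZNF317, ZNF574, ZNF593, ZNF706 and ZNF800. The libraries labelled U2AF1 had no peak on U2AF1 exons and 7 in each replicate on USP39 exons (highest fold 2716 and 3226), and USP39 was left out. Their label is therefore in doubt, and values under it are those of the library labelled so. Lists held 15 to 8702 peaks (median 631), and TRIM55 replicate 2 and ZMAT5 replicate 2 stood apart with low folds among their coding exon peaks.

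Coding exons carry the protein code and are joined to each other when introns are spliced from the RNA. A plasmid ORF holds the joined exons without introns, so reads from a plasmid would align to the exons of its gene and stop at the coding borders. Long, GC-rich coding exons also hold CpG islands, stretches rich in the CG dinucleotide that are often open chromatin.

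Sequences of the strongest peaks show what these regions look like at base level. The first, on NR5A1 (a nuclear receptor of steroid-producing tissues), is the peak of GTF3C4 replicate 1 at chr9:124482759-124482999 (hg38, minus strand, exon 7 of 7). The second, on ZNF473 (a zinc-finger protein of histone pre-mRNA processing), runs across the first base of the peaks of SNRPC, at chr19:50044629-50044748 (plus strand, exon 5 of 5). In both, capitals mark the coding part of the exon, and they are shown because the peak edge lay next to its edge.

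NR5A1: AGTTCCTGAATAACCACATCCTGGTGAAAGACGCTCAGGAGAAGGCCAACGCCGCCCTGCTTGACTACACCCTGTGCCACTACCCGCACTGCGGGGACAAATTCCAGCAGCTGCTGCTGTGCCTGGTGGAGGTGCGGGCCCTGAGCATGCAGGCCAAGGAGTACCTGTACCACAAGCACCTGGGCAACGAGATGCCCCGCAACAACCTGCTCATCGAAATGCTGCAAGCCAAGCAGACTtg
ZNF473: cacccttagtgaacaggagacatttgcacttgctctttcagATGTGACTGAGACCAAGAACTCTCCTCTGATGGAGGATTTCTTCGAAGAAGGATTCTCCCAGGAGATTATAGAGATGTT

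The next 3 peaks, all from RNF113A replicate 1, are shown for their place on a splice donor, the end of an exon where the intron begins. They lay on ANAPC5 (a subunit of the anaphase-promoting complex) at chr12:121318197-121318374, on RBM19 (a protein of ribosome assembly) at chr12:113918310-113918484 and on CRNKL1 (a spliceosome protein) at chr20:20043422-20043582, each on the minus strand. Capitals again mark the coding exon, and the donor is the step from capitals to lower case.

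ANAPC5: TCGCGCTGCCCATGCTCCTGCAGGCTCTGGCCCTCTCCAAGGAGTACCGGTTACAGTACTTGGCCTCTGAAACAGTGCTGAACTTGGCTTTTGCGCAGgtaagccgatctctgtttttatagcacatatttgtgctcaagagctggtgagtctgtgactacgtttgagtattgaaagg
RBM19: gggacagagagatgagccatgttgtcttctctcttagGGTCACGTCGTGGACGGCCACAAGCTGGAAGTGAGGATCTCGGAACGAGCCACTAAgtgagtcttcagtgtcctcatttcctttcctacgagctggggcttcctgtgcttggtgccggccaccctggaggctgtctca
CRNKL1: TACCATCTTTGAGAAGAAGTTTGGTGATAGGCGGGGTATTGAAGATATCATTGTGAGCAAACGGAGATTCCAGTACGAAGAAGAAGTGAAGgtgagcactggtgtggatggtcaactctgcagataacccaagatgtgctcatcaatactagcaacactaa

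Another pair shows the strongest and the most shared of the regions. The peak on ZNF775 (a zinc-finger gene) at chr7:150396854-150397010 (plus strand, exon 3 of 3) had the same 157 bases in both CTCF replicates, and capitals mark its longest run, 25 bases, that also occurs in the CTCF coding sequence. The window on UNC13A (a protein that readies vesicles at synapses) spans 100 bases on each side of the summit of ZNF22 replicate 1, at chr19:17606114-17606314 (minus strand, exon 44 of 44), and capitals mark its 25 CG dinucleotides.

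ZNF775: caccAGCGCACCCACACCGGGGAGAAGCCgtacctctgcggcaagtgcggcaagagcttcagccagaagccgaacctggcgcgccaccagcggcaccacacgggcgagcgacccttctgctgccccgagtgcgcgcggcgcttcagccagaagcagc
UNC13A: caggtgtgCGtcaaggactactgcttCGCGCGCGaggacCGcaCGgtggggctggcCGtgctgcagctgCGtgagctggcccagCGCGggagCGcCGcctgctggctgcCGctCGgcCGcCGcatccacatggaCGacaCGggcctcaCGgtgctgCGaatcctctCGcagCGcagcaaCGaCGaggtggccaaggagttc

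Coding exon peaks were found in 55 of the 72 lists and for 33 of the 36 ZFPs. Neither list of CNBP, SALL4 or ZFP36L1 held any. In the longer ZFP36L1 list, 0 of 413 peaks allows a share of up to 0.726% by the limit of 3 counts (exact upper bound 0.889%). The ZFPs with the most were CISD1 (147 in replicate 1 and 34 in replicate 2), G2E3 (54 and 66), APEX2 (85 and 28), PHF7 (67 and 3), GIN1 (43 and 22), ZNF22 (42 and 13) and CTCF (26 and 8). These 7 ZFPs held 74.6% of the coding exon peaks and 58.5% of all peaks. Replicates of a ZFP could differ widely. In PHF7, the share of all peaks was 1.07% (exact Clopper-Pearson 95% interval 0.827% to 1.35%) in replicate 1 and 0.412% (0.0849% to 1.20%) in replicate 2. Such intervals cover counting error only.

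Within the zone that the distance limits leave, coding exons were hit more often than their length would give. Coding exons took up 0.676% of its bases and 2.63% of its 32541 peaks, whereas introns of protein-coding genes took up 39.7% of the bases and 29.0% of the peaks. Averaged over the 2 replicates, the share of zone peaks on coding exons was 7.02% ± 0.739 (SD, n = 2) for G2E3, 5.46% ± 1.66 for APEX2, 4.86% ± 1.74 for CISD1 and 4.53% ± 1.95 for GIN1. It was 3.0% ± 1.04 for CTCF, a DNA-binding insulator protein. The difference from the share of bases averaged 1.02 percentage points ± 1.75 (SD over 36 ZFPs). It was above 0 for 24 ZFPs and below 0 for 12 (two-sided permutation test by sign flips over ZFPs, p = 0.00061, adjusted p = 0.00183 over 3 tests). With only peaks of −log10 q of at least 5, the mean difference was 0.129 points and the adjusted p was 0.511. It was 0.447 over 5 kb from every TSS, 0.617 with the 3′ ends of all transcripts, 1.69 without satellite-like windows and 1.90 with any base of a peak on a coding exon, and the call held in these. List by list, the exact interval of the share lay above the share of bases in 21 lists, below it in 1 and across it in 50.

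**Figure D1:**
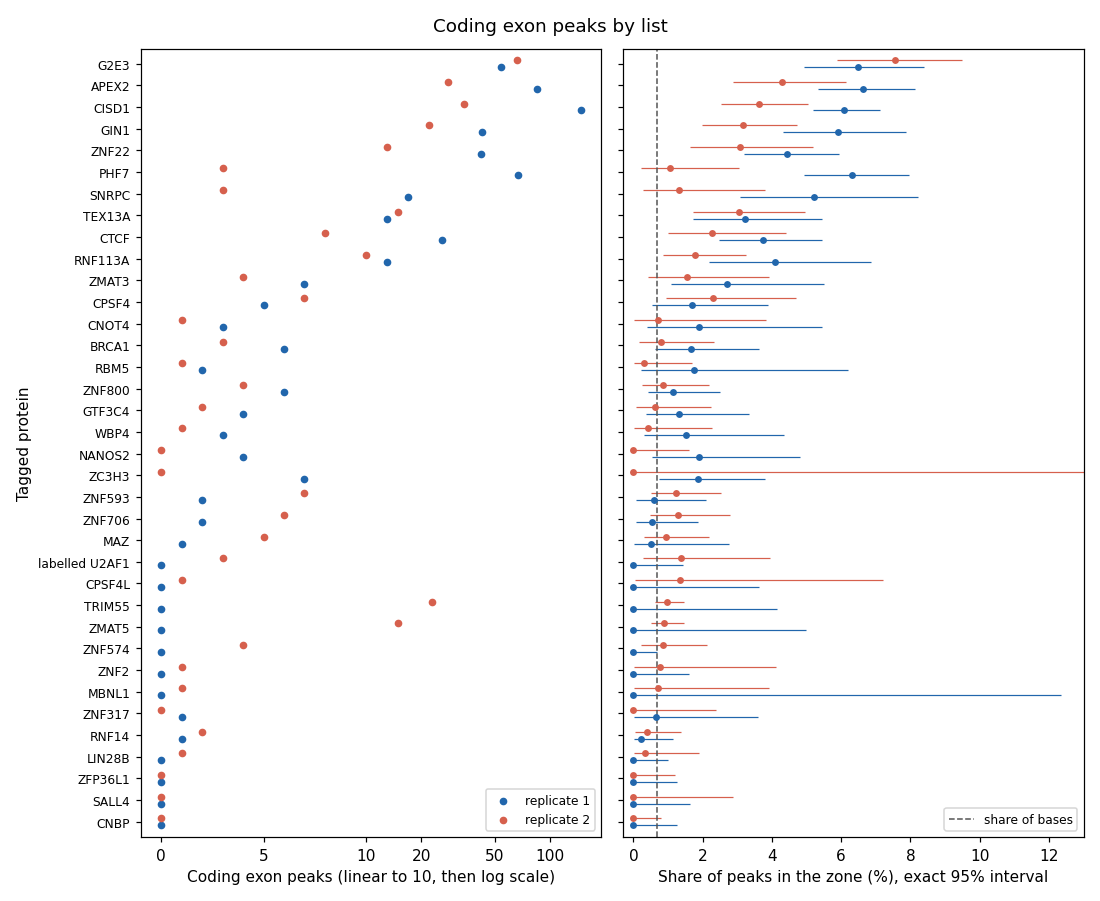
Coding exon peaks in each list (left, number, linear up to 10 and logarithmic above) and as a share of the peaks in the zone (right, %, bars give the exact 95% interval), with replicate 1 in blue and replicate 2 in red. The dashed line marks the 0.676% of zone bases that are coding, and the bars of 1 list with 3 zone peaks (ZC3H3 replicate 2) run past the axis; the highest lists are both of G2E3 and replicate 1 of APEX2, PHF7, CISD1 and GIN1.

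Position in the gene and base composition set these peaks apart from the coding sequence at large. Their median distance from a TSS was 4572 bases, with 468 peaks at 2 to 5 kb, 233 at 5 to 10 kb, 101 at 10 to 20 kb and 53 beyond 20 kb. The part within 5 kb was 54.7% of coding exon peaks, 34.6% of eligible coding bases and 29.2% of the intron peaks of the zone. Within 100 bases inside the TSS limit lay 35 peaks, and within 100 bases outside it lay 21 that would otherwise have qualified. Last coding exons held 31.6% of the peaks and 16.8% of the eligible coding bases, and internal coding exons held 53.7% and 76.0%. Exons of at least 1000 bases held 34.2% of the peaks and 18.6% of the bases. Chromosome 19 held 18.6% of the peaks (159) and 5.67% of the bases. Its peaks lay on 89 genes, with 17 on ZNF473 and 14 on UNC13A.

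GC content was the feature that most of these windows shared. In the window of 100 bases on each side of the summit, median GC was 65.7% for coding exon peaks, 57.7% for the 9451 intron peaks of the same zone and 44.8% for the centres of the 98433 eligible coding exons. A CpG ratio (observed over expected) above 0.6 was met by 48.7% of coding exon peaks, 19.04% of intron peaks and 9.04% of eligible exon centres. The median GC of coding exon peaks was above that of intron peaks in 18 of the 21 ZFPs with at least 5 coding exon peaks, and the median CpG ratio was above it in all 21. The exceptions in GC were ZMAT5 (41.3% against 41.8%), ZNF706 (58.2% against 61.7%) and ZNF800, where both medians were 57.2%. These are descriptions without a test, and the part of GC content in the higher coding share was not tested. No coding exon window was satellite-like (5 or more copies of ATTCC or GGAAT, either strand, overlaps counted), against 13 of the intron windows (0.138%).

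**Figure D2:**
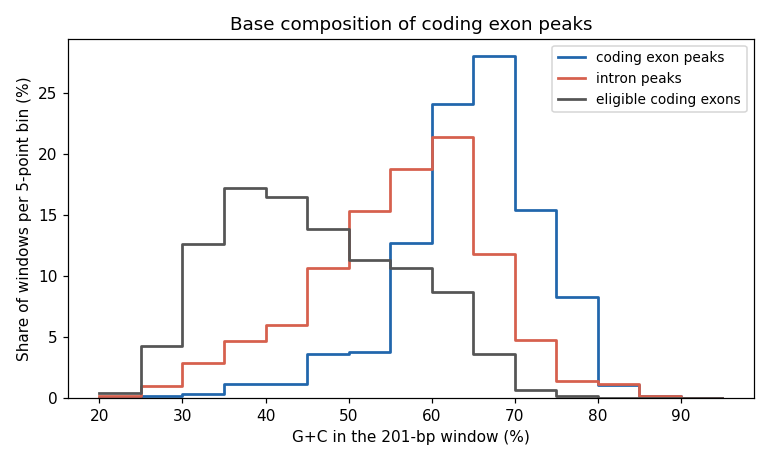
Share of windows (%) by G+C content of the summit window in bins of 5 points, for coding exon peaks (blue), intron peaks of the same zone (red) and the centres of all eligible coding exons (grey). The medians are 65.7%, 57.7% and 44.8%.

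Most coding exon peaks were weak. Their fold over control had a median of 4.73 (quartiles 4.21 and 5.34, range 1.99 to 37.8), and their median −log10 q was 2.46, beside 4.50 and 2.38 for the intron peaks. The 23 peaks of TRIM55 replicate 2 (median fold 2.00) and the 15 of ZMAT5 replicate 2 (median 2.00) were the lowest, and without them the lowest fold was 3.44. Fold was compared within each list, since controls differed between batches. On the log2 scale, the median fold of coding exon peaks exceeded that of intron peaks by 0.13 ± 0.31 (SD over 18 ZFPs), with 15 ZFPs above 0 and 3 below (two-sided permutation test over ZFPs, p = 0.00135, adjusted p = 0.00202). GTF3C4 (1.20) and ZNF800 (0.69) had the highest differences, and NR5A1 held 5 of the 6 coding exon peaks of GTF3C4, and NR5A1 and ZNF473 together held 8 of the 10 of ZNF800. Without the coding exon peaks of ZNF473, NR5A1 and ANAPC5 the mean difference was 0.03 over 16 ZFPs (permutation test, adjusted p = 0.0264), and without replicate 1 it was 0.0481 (adjusted p = 0.0179). The call was lost without replicate 2 (0.0863, adjusted p = 0.0912) and with the 3′ ends of all transcripts (0.0548, adjusted p = 0.111), both by permutation tests. At −log10 q of at least 5 the difference was 0.34 over only 5 ZFPs (permutation test, adjusted p = 0.468). Sign flips over 5 ZFPs cannot give a p below 0.05, so that setting cannot decide the call.

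**Figure D3:**
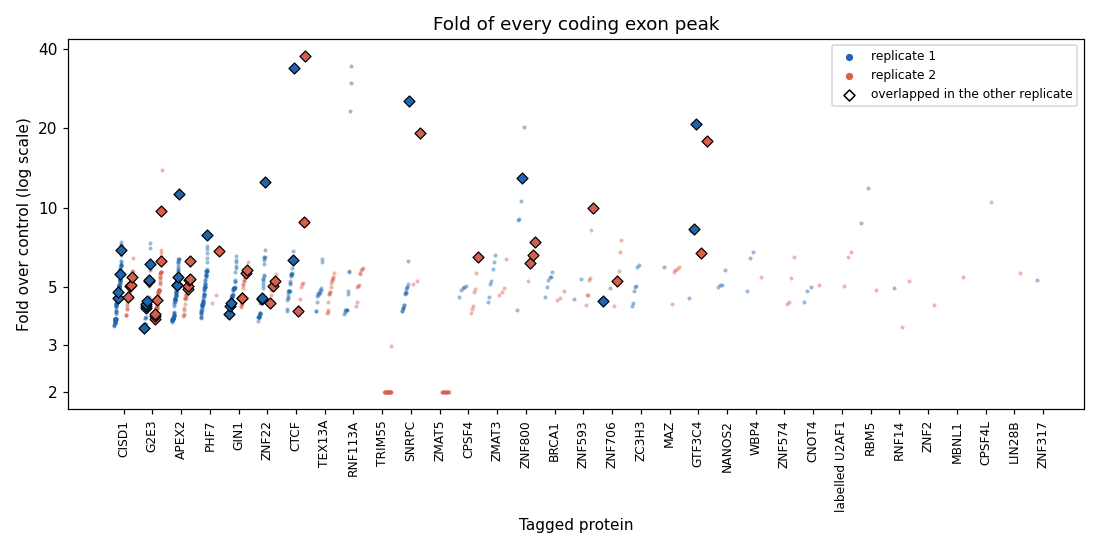
Fold over control (log scale) of each of the 855 coding exon peaks by tagged protein, replicate 1 in blue and replicate 2 in red. Black-edged diamonds are the 65 peaks overlapped by a peak of the other replicate; most points lie between 4 and 6, and the 3 highest are ZNF775 in CTCF replicate 2 (37.8), RBM19 in RNF113A replicate 1 (34.5) and ZNF775 in CTCF replicate 1 (34.04).

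Few coding exon peaks recurred between the replicates of a ZFP. A peak of the other replicate overlapped (by at least 1 bp) 65 of the 855, or 7.60%, beside 26.3% of all peaks and 13.1% of the intron peaks of the zone. Over the 21 ZFPs with at least 5 coding exon peaks, the share found in both replicates was lower than that of intron peaks by a mean of 4.94 percentage points (difference −4.94 ± 9.44, SD), with 14 ZFPs below 0, 4 above and the rest equal (two-sided permutation test over ZFPs, p = 0.026, adjusted p = 0.026). The 2 lists of a ZFP were pooled here, and their lengths could differ. PHF7 had 67 and 3 coding exon peaks beside 378 and 66 intron peaks, whereas G2E3 had 54 and 66 beside 328 and 363. The equal ZFPs, TRIM55, ZMAT5 and ZC3H3, each had a short list, of 114, 95 and 15 peaks. The part of list length in the difference was not tested. BRCA1 had 0 of 9 coding exon peaks in both replicates and 25.8% of its intron peaks. MAZ had 0 of 6 and 21.5%. G2E3 went the other way, with 11.7% of coding exon peaks and 7.67% of intron peaks. With at least 10 coding exon peaks required, the mean difference was −2.97 points and the adjusted p was 0.0719. Without NR5A1, the 1 gene with peaks on at least 3 separate coding exons in a list, it was −4.53 points and the adjusted p was 0.114.

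**Figure D4:**
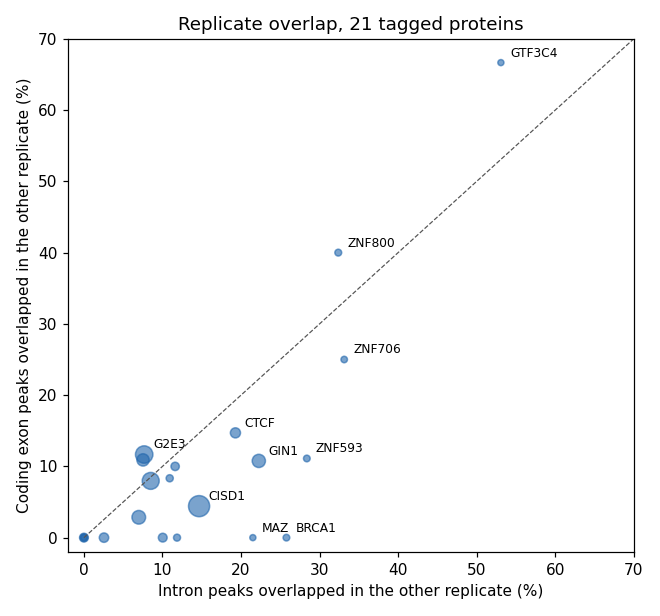
Share (%) of coding exon peaks overlapped by a peak of the other replicate (vertical) against the same share of intron peaks (horizontal) for 21 tagged proteins. Point area grows with the number of coding exon peaks, the dashed line marks equal shares, and 14 proteins lie below it.

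Of the 791 pairs of a ZFP and a gene, 31 had a coding exon peak in both lists and 24, over 11 ZFPs and 18 genes, had overlapping ones. The strongest was ZNF775 in CTCF, at fold 34.04 in replicate 1 and 37.8 in replicate 2, with no peak of another ZFP on it. Next came ZNF473 in SNRPC, a protein of the U1 splicing particle, at 25.3 and 19.3, and NR5A1 in GTF3C4, a subunit of transcription factor IIIC, at 20.8 and 17.9. These 3 pairs were far above the rest, and whether DNA of another plasmid took part in the ZNF473 and NR5A1 folds was not tested. ZNF473 in ZNF800 had 12.97 and 7.42. UNC13A in PHF7, a PHD-finger protein, had 7.90 and 6.86, and in ZNF22 it had 12.6 and 5.25. For each other ZFP the gene with the highest fold in its lower replicate is given, and these were near fold 5. In G2E3 it was ISLR2, a membrane protein of neurons (5.31 and 6.30), in APEX2 CSRNP1, a nuclear protein (5.096 and 5.36), and in CISD1 ANKRD24 (6.88 and 5.09). In ZNF706 it was NPIPB11 (4.44 and 5.28) and in GIN1 PLEC, which links cytoskeletal filaments (4.37 and 5.79). G2E3 had the most such genes, 6. NPIPB11 and NPIPB12 are near-identical copies in a segmental duplication, so reads could be split between them.

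The NR5A1 and ZNF473 peaks followed exons. NR5A1 was the only gene with peaks on at least 3 separate coding exons of 1 list. In ZNF800 replicate 1, its peaks had fold 9.04 on exon 3, 8.94 on exon 5, 10.6 on exon 6 and 20.3 on exon 7. In GTF3C4 replicate 1, they had 8.32 on exon 3, 8.13 on exon 6 and 20.8 on exon 7, and in replicate 2 they had 6.71 on exon 3 and 17.9 on exon 7. The exon 7 peak reached 2 bases past the last coding base in all 3 of these lists, as the sequence above shows. Peaks on exon 4 (fold 16.9 in ZNF800 replicate 1, 11.97 and 10.1 in replicates 1 and 2 of GTF3C4) lay within 2 kb of a TSS and so were not members. ZNF800 replicate 2 held no NR5A1 peak, and in the NR5A1 gene body only 1 of 13 peaks of all lists lay off an exon (5.24, replicate 2 labelled U2AF1).

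ZNF473 is another protein of the study's ORF set, and it is not among the titles of the lists used here. Its last coding exon, 2387 bases long, held 17 peaks in 10 lists of 7 ZFPs, with folds of 2.00 to 25.3. In SNRPC the peaks covered 99.4% of this exon in replicate 1 and 99.9% in replicate 2, and in ZNF800 replicate 1 a peak covered all of it. All 3 peaks began 1 base before the exon. In G2E3 replicate 2 there were 2 peaks (9.71 and 13.9) and in replicate 1 there was 1 (5.26). GIN1 replicate 1 had 2 (6.22 and 5.25), ZNF706 replicate 2 had 3 (4.22 to 6.81), ZNF800 replicate 2 had 3 (6.18 to 7.42), RNF14 replicate 2 had 1 (5.27) and TRIM55 replicate 2 had 2 (2.00 and 2.997). ZNF800 replicate 1 also had peaks on exon 3 (8.08) and exon 4 (10.7), nearer to a TSS than the limit. No peak of any list lay off the exons of ZNF473, of 20 in the gene body. Across all coding exon peaks, 18 had both edges within 15 bases of the exon's edges, 6 of them on NR5A1, 2 on ZNF473 and 10 on other genes (a limit chosen after the values were seen).

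**Figure D5:**
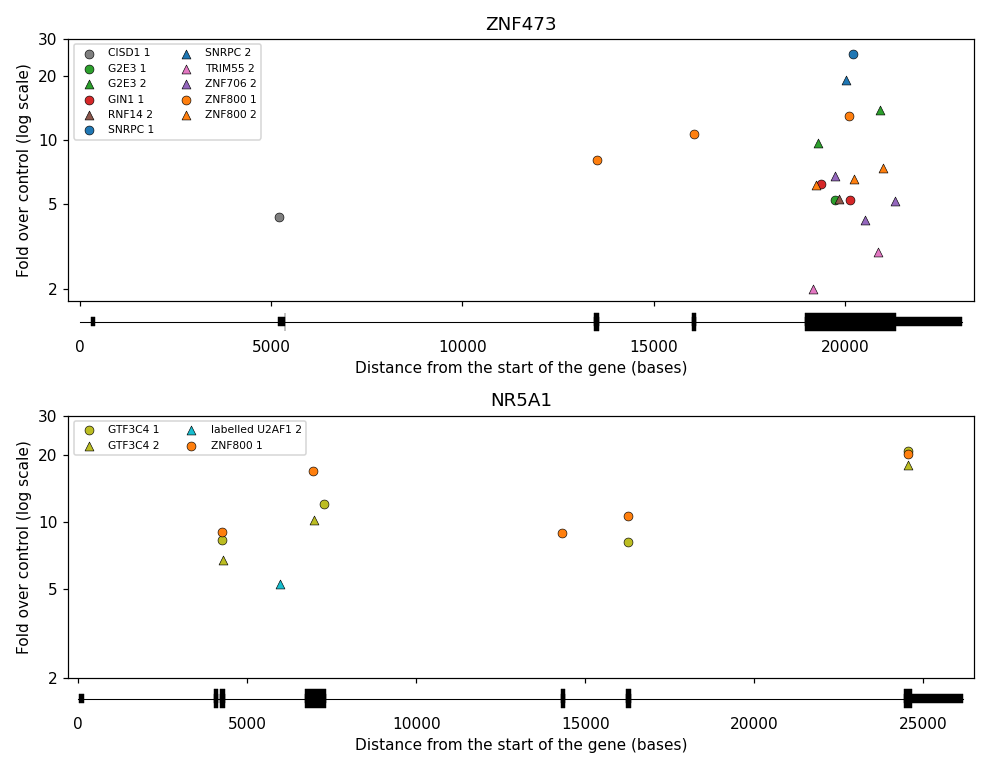
Fold over control (log scale) of every peak in the gene bodies of ZNF473 (top) and NR5A1 (bottom) against distance from the gene's start (bases), coloured by tagged protein, with circles for replicate 1 and triangles for replicate 2. The bars under each panel show exons to scale (thick, coding); the points stand over exons, apart from 1 NR5A1 peak of replicate 2 labelled U2AF1.

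Of the other ORFs of the study that were looked up, ERI2 had 1 coding exon peak, in APEX2 replicate 1 (5.44, 2123 bases from a TSS), and CISD2, IGHMBP2, ZC3HAV1 and ZNF277 had none that met the distance limits. A CISD2 exon peak of LIN28B replicate 2 had fold 31.4 but lay 266 bases from a gene 3′ end. In the IGHMBP2 gene body, 9 of 14 peaks were coding and 4 lay off exons, and the coding ones were within 2 kb of a TSS. They included exon 13 peaks in both ZNF317 replicates (14.6 and 9.60, 397 and 522 bases from a TSS). DEGS1, a desaturase of ceramide synthesis, had no coding exon peak that met the distance limits among the 11 peaks in its gene body. Paralogs of the tagged ORF, listed for 22 ZFPs, gave no coding exon peak in the lists of their own ZFP. For CPSF4, CPSF4L, G2E3 and PHF7 the listed paralog was itself a left-out gene, so their count was 0 by the rule. A paralog with all its coding exons within 2 kb of a TSS could give none either, and such paralogs were not counted. For ZNF2 and ZNF317, all genes named ZNF with a number were listed. Coding exon peaks nearer to a TSS did occur on paralogs of RNF113A and TEX13A. RNF113A had RNF113B peaks at fold 105 and 122 in replicate 1 and 105 and 127 in replicate 2, and TEX13A had a TEX13B peak at 29.96 and 18.1. The longest exact match between a coding exon window and the ORF tagged in the same cells had a median of 9 bases and a maximum of 25, which was reached only by ZNF775 in the 2 CTCF lists. Matches of 25 bases to the ORF of another ZFP were found in 2 ZNF473 windows, both with ZNF2.

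Peaks of fold 10 or more numbered 17 (1.99% of coding exon peaks, beside 1.08% of intron peaks) and lay on 7 genes. Beside NR5A1, ZNF473, ZNF775 and UNC13A these were RBM19, CRNKL1 and ANAPC5. These 3 genes, the fold limit and the distance to splice sites were chosen after the values were seen. In RNF113A replicate 1, RBM19 had 34.5, CRNKL1 29.7 and ANAPC5 23.3, with summits 7, 3 and 2 bases from a splice donor. ANAPC5 also had a peak in RBM5 replicate 1 (11.9, summit 3 bases from the donor) and in CPSF4L replicate 2 (10.5, 13 bases). None of these peaks had a counterpart in the other replicate. RNF113A and RBM5 are proteins of the spliceosome. Among all coding exon peaks, 52 (6.08%) had the summit within 20 bases of a donor and 49 (5.73%) within 20 bases of an acceptor, the start of an exon after an intron. The share of eligible coding bases that near a splice site was not measured, so whether these 2 shares are in excess is not known. The median eligible coding exon was 124 bases wide, and the median exon under a coding exon peak was 525 bases wide. Over the whole list of RNF113A replicate 1, apart from left-out genes, 24 of the 63 peaks of fold 10 or more (38.1%) lay within 20 bases of a donor and 0 within 20 bases of an acceptor. In all other lists together, 31 of 1300 did (2.38%), 6 of them among the 79 in ZNF22 replicate 1, 5 among the 13 in RBM5 replicate 1 and 2 among the 7 in CPSF4L replicate 2. RNF113A replicate 2 had 0 of 13 and RBM5 replicate 2 had 0 of 4.

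Sharing between ZFPs was limited to a minority of regions. Overlapping coding exon peaks merged into 692 regions, of which 617 came from 1 ZFP, 49 from 2 and 26 from 3 or more. A peak of another ZFP overlapped 266 of the 855 peaks (31.1%), beside 71.0% of all peaks and 37.8% of the intron peaks. By gene, 485 of 604 had coding exon peaks of 1 ZFP and 8 had those of at least 5. The counts by region and by gene took only peaks with the summit on the exon, and none for intron peaks are given beside them. With peaks of any summit counted, the CFAP74 region had 7 ZFPs in 11 lists and a PRR7 region 9 in 12. All lists of a batch shared a mock IP control, so lists are not independent of each other.

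UNC13A was shared most widely, by 14 peaks of 10 ZFPs on its last exon, whose summits all fell within 243 bases. Its folds were 11.3 and 5.03 in APEX2, 12.6 and 5.25 in ZNF22, 7.90 and 6.86 in PHF7 and 6.35 and 4.07 in CTCF, replicate 1 first each time. Single lists of CPSF4 (6.51), G2E3 (6.12), GIN1 (4.89), TEX13A (4.40), WBP4 (6.43) and ZMAT3 (6.63) held the rest. Both replicates thus held it in 4 ZFPs, and in PHF7 alone of these were the replicates within 1.5 times of each other. Counting peaks with a summit off the exon too, 12 ZFPs and 19 lists had a peak in these 972 bases, chr19:17605801-17606772. The nearest TSS was 5837 to 6080 bases away, and the median GC was 72.4%.

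ZNF473, with 7 ZFPs as given above, came next by number of ZFPs. PCDH10, a cell adhesion protocadherin, had peaks in 6 ZFPs (4.25 to 6.90), each in 1 list. The next genes had peaks in 5 ZFPs each, not the same 5 from gene to gene. They were GPRIN1, a protein of nerve cell outgrowth (2.00 to 7.19), ZNF703 (4.37 to 7.005), DLL3, a Notch ligand (4.52 to 6.72), TCHH, a hair follicle protein (3.80 to 5.82), and ACAN, the cartilage proteoglycan aggrecan (3.60 to 4.97). Of the 8 genes with peaks in 4 ZFPs, those with the highest folds are named. CFAP74, a protein of cilia, and EPPK1, a plakin, reached 9.93 and 8.24 in ZNF593 replicate 2. The ACAN peaks of GTF3C4, RNF14, ZNF574 and ZNF800 lay on exon 12 of 19 and that of G2E3 on exon 7. GC was lower on ACAN (median 55.7%) than on DLL3 (75.9%), GPRIN1 (75.6%) and EPPK1 (78.1%).

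By family, genes named as zinc-finger genes held 68 of the coding exon peaks (7.95%, beside 4.48% of eligible coding bases), on 34 of 500 such genes (6.80%), and 4.30% of all eligible genes had a peak. ZNF473 alone held 17 of the 68. Zinc-finger genes held 14 of the 65 peaks found in both replicates, 8 of these on ZNF473. Mucins had 10 peaks on 4 of 15 genes (1.17% of peaks, 0.791% of eligible coding bases). Protocadherins had 8 on 3 of 49 (0.936% and 0.227%), 6 of them on PCDH10. Olfactory receptors had 3 on 1 of 82 (0.351% and 0.467%) and collagens 1 on 1 of 42 (0.117% and 0.741%). The listed segmental duplication families, NPIPB not among them, had 3 on 2 of 97 genes (0.351% and 1.10%). Cancer-testis families on the X chromosome (48 genes) and histones (1 eligible gene) had none. In CTCF, 0 of the 34 coding exon windows held the CTCF consensus (either strand), against 6.23% of its 337 intron windows, and 0.119% of all eligible exon centres did. With only 34 coding exon windows, this contrast in CTCF was not tested. Over all lists, 3 coding exon windows held the consensus (0.351%), beside 0.423% of intron windows. The 3 were in APEX2 replicate 1 (CARNS1 and LRP1) and RNF113A replicate 1 (CRTC1).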

How the data were processed

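Per the labels and the study's methods, the authors trimmed reads with Trimmomatic 0.36, aligned them to hg38 with Bowtie2 2.3.5.1, removed duplicates with Picard 0.1.8 and called narrow peaks in each library with MACS2 2.2.7.1 with the mock IP library from that batch as control. The deposited lists give positions, a fold enrichment (a ratio of the library over its control) and −log10 of the q-value. They hold no read counts, so depth is unknown here. The 2 mock IP samples had no list and were not analysed here.

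Peaks were placed on GENCODE 44 with Python 3.11.15, pandas 2.3.3, numpy 2.4.6 and scipy 1.17.1. Sequences were read from the hg38 genome. Windows spanned 100 bases on each side of the summit. Tests were two-sided sign flips over ZFPs (100000 draws, Benjamini-Hochberg over 3 tests), tested on simulated data. Replicates were averaged first for the coding share and the fold. For the share found in both replicates, the peaks of the 2 lists of a ZFP were pooled. Peaks of 1 list are not replicates, and p-values measure the spread between ZFPs. The p-values treat ZFPs as independent, although lists of a batch shared a mock IP control. Alternatives moved the distance limits, annotation, thresholds and ZFPs used. Genes named are for each ZFP the gene found in both replicates with the highest fold in its lower replicate, the 10 shared by the most ZFPs (ties by the highest fold), genes with peaks on 3 or more coding exons of 1 list, paralogs, other ORFs of the study and DEGS1, and CTCF peaks in both replicates that hold its consensus. The members and lists were chosen with earlier results of these data known.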

Additional observations from a re-analysis of the deposited data

How the results depend on the processing

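No paired analysis was possible because no groups of samples were compared, so replicate numbers pair none. The tests set coding exon peaks against intron peaks or bases within each list. Of 56 alternative values of the 3 tests, 49 kept their direction and call, 7 lost the call and none reversed. A planned setting left out ZMAT5, SNRPC, TRIM55, ZC3H3, MBNL1 and CPSF4. The coding share then differed by 1.10 points, the share found in both replicates by −6.22 points and the fold by 0.146. All 3 calls held in that setting. Leaving out TRIM55 and ZMAT5, or the coding exon peaks of ZNF473, NR5A1 and ANAPC5, was chosen after seeing the data; neither ended a call. The cause of the shifts below was not tested, except that stricter limits leave fewer peaks.

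With peaks over 5 kb from every TSS, there were 387 coding exon peaks, 12 pairs of a ZFP and a gene found in both replicates and 4 genes shared by at least 5 ZFPs. Over 1 kb from every TSS, 13 genes were shared. With no limit to gene 3′ ends, 14 were. With the 3′ ends of all transcripts, there were 538 peaks, 12 pairs, 5 shared genes and a fold difference of 0.0548 (permutation test, adjusted p = 0.111). Any base of a peak on a coding exon gave 37 pairs, and −log10 q of at least 2 gave 15. At −log10 q of at least 5, there were 70 peaks, 5 pairs and 1 shared gene. The coding share then differed by 0.129 points, the share found in both replicates by −17.2 points and the fold by 0.34. These rested on 36, 6 and 5 ZFPs (permutation tests, adjusted p = 0.511, 0.468 and 0.468). With 5 ZFPs the fold call could not be kept whatever the values, although it is counted as lost. The share found in both differed by −4.53 points without NR5A1 and by −2.97 points with at least 10 coding exon peaks. Leaving out a replicate gave 294 to 561 peaks, 2 to 3 shared genes and fold differences of 0.0481 to 0.0863, the last without replicate 2 (permutation test, adjusted p = 0.0912). Peak lists carry no read counts, so whether depth sets the number of weak peaks was not tested.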
